A study of Homo sapiens with 12 samples.

Results

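Transcripts of 38 genes that encode integrin chains and focal adhesion proteins were examined in human liver cancer cells in which CD146 had been lowered or raised. The genes were taken by name, as 20 integrin chains (12 alpha and 8 beta) and 18 adhesion proteins, and all 38 were found among the 61806 gene IDs of the count table. Poly(A)-selected RNA was sequenced in 12 libraries, in 4 groups of 3. Cells labelled Hep3B carried a Tet-on shRNA against CD146, or a Tet-on control shRNA, so both of these groups held an inducible hairpin. HepG2 cells carried the CD146 vector or pLVX, so both of these groups held a vector. Hep3B and HepG2 are established lines from human liver tumours. Cells labelled Hep3B were grown in DMEM, and HepG2 cells in MEM with sodium pyruvate. CD146 is a cell surface adhesion molecule of the immunoglobulin superfamily and is encoded by MCAM. Hairpin sequences, induction times, clones and the origin of replicates are not given in the sources used here. The numbers 1 to 3 in the shRNA library names may stand for replicates or for different hairpins, so each SD and p-value of those groups may include differences between hairpins.

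Integrins are pairs of one alpha and one beta chain that bind the extracellular matrix outside the cell and the actin cytoskeleton inside it. Talins and kindlins bind the beta chain tail and switch the receptor on. The complex of integrin-linked kinase, a PINCH protein and a parvin, together with vinculin, zyxin and tensins, then ties it to actin, while focal adhesion kinase, paxillin and p130Cas carry signals. ITGB1 is the common partner of most alpha chains, and hepatocytes are known to use few chains, among them the collagen-binding alpha 1 chain.

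Between 12.8M and 18.1M counts (M, 10 to the power 6) were assigned to genes per library, with overlapping ranges in the 4 groups. The targeted gene, MCAM, read 22.0 to 26.9 CPM after the CD146 shRNA against 112 to 119 CPM in its controls (log2 fold change -2.25). With the CD146 vector it read 1897 to 1954 CPM, against 22.9 to 23.7 CPM in pLVX cells (log2 fold change 6.37). CPM are counts divided by a library total, scaled by TMM and expressed per 1M. The summed CPM of markers, here and below, rest on library totals without TMM. So do the limits of 10 and 200 CPM and the percentages of the HepG2 level in this paragraph. The label Hep3B went against the hepatocyte markers: 0 of 9 averaged over 10 CPM in either shRNA group, while all 9 did in both HepG2 groups. Their summed level was 9.32 to 73.0 CPM with the CD146 shRNA, 7.63 to 10.3 CPM with the control shRNA, 52400 to 53200 CPM with the CD146 vector and 57600 to 59600 CPM with pLVX, so these cells are called libraries labelled Hep3B throughout. CD146 shRNA replicate 3 stood apart in liver transcripts, with 298 counts of ALB against 0 to 5 in the other libraries labelled Hep3B. Over 23 genes with at least 200 CPM in HepG2 and at most 2 counts in the remaining libraries labelled Hep3B, it held 0.108% of the HepG2 level. The other 5 libraries held 0.00126% to 0.00378%, over sets for which replicate 3 was also left out of the limit on counts. Without CD146 shRNA replicate 3, 7 members were higher and 15 lower after the CD146 shRNA, against 8 and 16 with it.

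The deposited FPKM, which are per gene length and so allow levels of different genes to be compared, gave each line its own set of chains. Summed over the 12 alpha chains, they came to 83.6 ± 1.05 with the CD146 shRNA, 90.3 ± 3.03 with the control shRNA, 63.7 ± 1.32 with the CD146 vector and 56.7 ± 1.97 with pLVX (SD, n = 3 each). Over the 8 beta chains the sums were 118 ± 0.363, 105 ± 4.61, 41.5 ± 0.805 and 41.1 ± 0.231 FPKM in the same order of groups. On these values, which are scaled by library totals, the libraries labelled Hep3B held more integrin transcript per length in every library than HepG2 did. With that scaling the median of all genes was also higher with the control shRNA than with pLVX. How far the integrin sums exceed that shift was not tested.

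**Figure D1:**
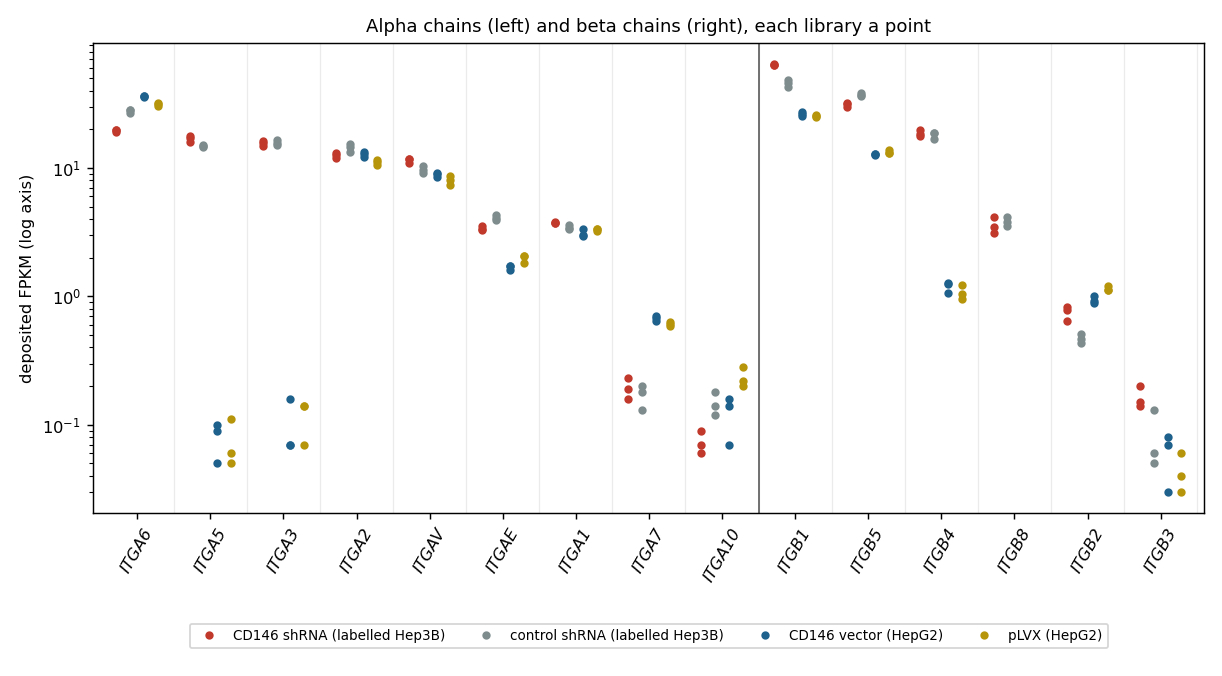
Deposited FPKM of the integrin alpha chains (left) and beta chains (right) on a log axis, with 1 point for each of the 12 libraries and the groups in 4 colours. Chains averaging 0.1 FPKM or less in every group, and libraries at 0, are not drawn. ITGA3, ITGA5, ITGB4 and ITGB8 stand well apart between the lines, while ITGA1, ITGA2 and ITGAV lie close together in all groups.

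ITGB1 was the first beta chain in all 4 groups, at 63.6 ± 0.731 FPKM with the CD146 shRNA, 45.6 ± 2.84 FPKM with the control shRNA, 26.5 ± 0.836 FPKM with the CD146 vector and 25.5 ± 0.429 FPKM with pLVX (SD, n = 3 each). ITGB5, the partner of alpha V that binds vitronectin, came second in each group, at 30.9 ± 1.14, 37.3 ± 0.857, 12.8 ± 0.0794 and 13.4 ± 0.429 FPKM in that order. ITGB4, which pairs with alpha 6 in hemidesmosomes, followed in libraries labelled Hep3B at 18.7 ± 1.05 FPKM with the CD146 shRNA and 18.1 ± 1.08 FPKM with the control shRNA. In HepG2 its level was 1.20 ± 0.114 FPKM with the CD146 vector and 1.08 ± 0.132 FPKM with pLVX, close to that of ITGB2, the beta chain of leukocytes.

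Among alpha chains, ITGA6, a laminin receptor chain, led by deposited FPKM in every group, at 19.6 ± 0.388 FPKM with the CD146 shRNA, 27.8 ± 0.842 FPKM with the control shRNA, 36.2 ± 0.248 FPKM with the CD146 vector and 31.1 ± 0.840 FPKM with pLVX (SD, n = 3 each). Its share of the alpha chain sum was 23.4% and 30.7% in the shRNA groups and 56.8% and 55.0% in the HepG2 groups, CD146-modified cells first. ITGA5, ITGA3, ITGA2 and ITGAV followed with the CD146 shRNA, and the same 4 chains with ITGA3 ahead of ITGA5 with the control shRNA, whereas in HepG2 ITGA3 and ITGA5 averaged at most 0.117 FPKM and ITGA2 and ITGAV came next. The length behind the FPKM sets part of this order: the deposited values imply 19337 bases for ITGAV and 14560 for ITGB1, against 8211 and 6011 exonic bases in GENCODE version 29. With the GENCODE lengths, ITGAV was the first alpha chain with the CD146 shRNA at 27.2% of the sum and the second in the other groups, and ITGB1 held 73.9% and 64.7% of the beta chain sum in the shRNA groups and 80.8% and 79.5% in HepG2, where the deposited lengths gave 54.1%, 43.2%, 63.8% and 61.9%.

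Of the adhesion proteins, VCL, which encodes vinculin, led by far in libraries labelled Hep3B, at 101 ± 1.69 FPKM with the CD146 shRNA and 84.4 ± 3.27 FPKM with the control shRNA (SD, n = 3 each). It made up 43.1% and 34.7% of the summed FPKM of the 18 proteins in those groups. In HepG2, VCL was at 10.0 ± 0.352 FPKM with the CD146 vector and 8.18 ± 0.157 FPKM with pLVX, and TLN1, which encodes the talin found in most cells, came first at 17.4 ± 0.112 and 15.7 ± 0.40 FPKM.

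The control groups of the lines were compared gene by gene with edgeR. They differ in line, vector and medium together, which cannot be told apart. Of 17401 genes tested, 85.2% differed at an adjusted p under 0.05, 43% higher and 42.1% lower, so a call in this comparison is the common outcome. Of the 32 members tested, 18 were higher and 12 lower with the control shRNA (labelled Hep3B) than with pLVX (HepG2), and ITGAV and ITGA2 were not called. Libraries of the groups did not overlap for 85.1% of all genes. With library totals as the only scaling the split was 22 higher and 9 lower, and the median of all genes moved to 0.38 from 0.02 on the log2 scale. In bulk libraries, fewer cells that express a gene and less of it per cell cannot be told apart.

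Among integrin chains, those that HepG2 nearly lacked differed most. ITGB8, an alpha V partner, had 47.4, 50.6 and 55.8 CPM with the control shRNA, and 0, 0.0675 and 0 CPM with pLVX. Its 2727 counts against 1 count gave a ratio of 2520 (95% exact binomial interval 452 to 99600, counting error only). ITGA5, the fibronectin receptor chain, had 96.4, 94.9 and 99.9 CPM with the control shRNA, and 0.893, 0.472 and 0.403 CPM with pLVX (log2 fold change 7.39). ITGA3, a laminin receptor chain, was at 136, 130 and 143 CPM with the control shRNA, against 1.61, 1.55 and 0.805 CPM with pLVX (6.68). No library of one line came near those of the other for these 3 chains. ITGB4 was measured at 101, 112 and 114 CPM with the control shRNA, against 9.37, 8.03 and 7.33 CPM with pLVX (3.73). ITGB5 had 214, 211 and 222 CPM with the control shRNA and 103, 97.0 and 96.5 CPM with pLVX (1.12). ITGB1 differed less, at 546, 596 and 625 CPM with the control shRNA, against 415, 425 and 421 CPM with pLVX (0.49). ITGAE, known from intraepithelial lymphocytes as the partner of ITGB7, had 22.9, 25.0 and 24.1 CPM with the control shRNA and 13.7, 15.2 and 15.3 CPM with pLVX (0.70).

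Other chains were lower in the libraries labelled Hep3B. ITGA7, a laminin receptor chain known from muscle, had 1.43, 1.03 and 1.60 CPM with the control shRNA and 6.16, 6.41 and 6.28 CPM with pLVX (log2 fold change -2.19). ITGB2 was read at 3.01, 2.77 and 3.32 CPM with the control shRNA, against 9.28, 9.31 and 9.90 CPM with pLVX (-1.64). ITGA10, a collagen-binding chain known from cartilage, had 0.687, 0.772 and 1.02 CPM with the control shRNA and 1.43, 1.96 and 1.53 CPM with pLVX (-1.0). These 3 chains were low in both lines. ITGA6 was abundant in both, at 158, 166 and 169 CPM with the control shRNA, against 230, 237 and 240 CPM with pLVX (-0.52).

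The adaptors differed in both directions too. CAV1, which encodes the coat protein of caveolae, had 71.4, 73.8 and 74.5 CPM with the control shRNA, and 0.536, 0.337 and 0.403 CPM with pLVX (log2 fold change 7.43). PARVB, which encodes beta-parvin, had 20.6, 21.8 and 18.6 CPM with the control shRNA, and 0.893, 0.202 and 0.403 CPM with pLVX (5.41). TNS1, a tensin gene, was at 94.4, 89.3 and 90.1 CPM with the control shRNA, against 3.48, 4.59 and 4.59 CPM with pLVX (4.42). CAV1 and PARVB stayed under 1 CPM in HepG2, and TNS1 was low but measurable there. VCL was read at 716, 745 and 782 CPM with the control shRNA, against 93.7, 93.6 and 90.3 CPM with pLVX (3.01). PARVA, which encodes alpha-parvin, had 70.4, 71.4 and 71.9 CPM with the control shRNA and 17.8, 17.0 and 16.0 CPM with pLVX (2.07). MICAL2, an enzyme that oxidises actin, was measured at 25.4, 23.5 and 24.1 CPM with the control shRNA, against 6.25, 6.21 and 7.25 CPM with pLVX (1.89). HepG2 expressed all 3 of these, at lower levels. PXN (paxillin) had 98.2, 105 and 105 CPM with the control shRNA and 31.9, 32.0 and 30.3 CPM with pLVX (1.71). ZYX (zyxin) measured 77.4, 77.4 and 78.9 CPM with the control shRNA and 31.2, 31.0 and 28.4 CPM with pLVX (1.37). FBLIM1 (migfilin, which links filamin to kindlin) had 14.4, 15.5 and 13.9 CPM with the control shRNA and 6.61, 7.22 and 6.60 CPM with pLVX (1.09). ILK (integrin-linked kinase) was at 8.14, 9.65 and 8.50 CPM with the control shRNA, against 6.16, 4.99 and 4.75 CPM with pLVX (0.73).

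All 4 talin and kindlin genes were lower in the libraries labelled Hep3B. TLN2, the second talin, had 8.46, 7.65 and 8.24 CPM with the control shRNA and 36.4, 37.4 and 37.5 CPM with pLVX (log2 fold change -2.19). FERMT1 (kindlin-1, known from epithelia) was at 31.0, 28.3 and 31.8 CPM with the control shRNA, against 56.7, 64.9 and 54.8 CPM with pLVX (-0.96). FERMT2 (kindlin-2) had 75.1, 73.2 and 78.8 CPM with the control shRNA and 125, 133 and 117 CPM with pLVX (-0.73). TLN1 was called lower by a small margin (-0.20), and this call alone among the 4 turned positive with library totals as the only scaling (0.16, against 0.38 for the median of all genes). Among the others, BCAR1 (p130Cas) had 26.5, 25.7 and 26.1 CPM with the control shRNA and 44.6, 44.4 and 42.7 CPM with pLVX (-0.75). TNS3 had 120, 121 and 114 CPM with the control shRNA and 195, 193 and 187 CPM with pLVX (-0.69). The remaining calls were small: LIMS1 (PINCH-1) at 0.14, ITGA1 at -0.30 and PTK2 (focal adhesion kinase) at -0.20, and with library totals as the only scaling those of ITGA1 and PTK2 turned to 0.05 and 0.16. The LIMS1 call was lost without pLVX replicate 1 (0.08, adjusted p = 0.11), and the ITGA1 call with limma as well as with library totals.

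After the CD146 shRNA, ITGB1 and vinculin transcripts rose while all 4 genes of the ILK-PINCH-parvin complex fell. Most neighbours of ILK and PARVA on chromosome 11 fell too, as described below. The alpha 6 and beta 5 chains fell, and the alpha 5 and alpha V chains rose. Of 16968 genes tested, 55.3% were called at an edgeR adjusted p under 0.05, 26.8% higher and 28.5% lower. Of the 33 members tested, 8 were higher, 16 lower and 9 not called, with a median log2 fold change of -0.10 against 0.00 for all genes; with upper-quartile scaling the split was 10 higher and 13 lower. Among integrin chains, 6 of 15 were higher and 5 lower. Of the 18 adhesion proteins, 2 were higher and 11 lower. The other 5 chains (ITGA4, ITGA9, ITGA11, ITGB6 and ITGB7) had at most 8 counts in any library labelled Hep3B and were not tested.

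**Figure D2:**
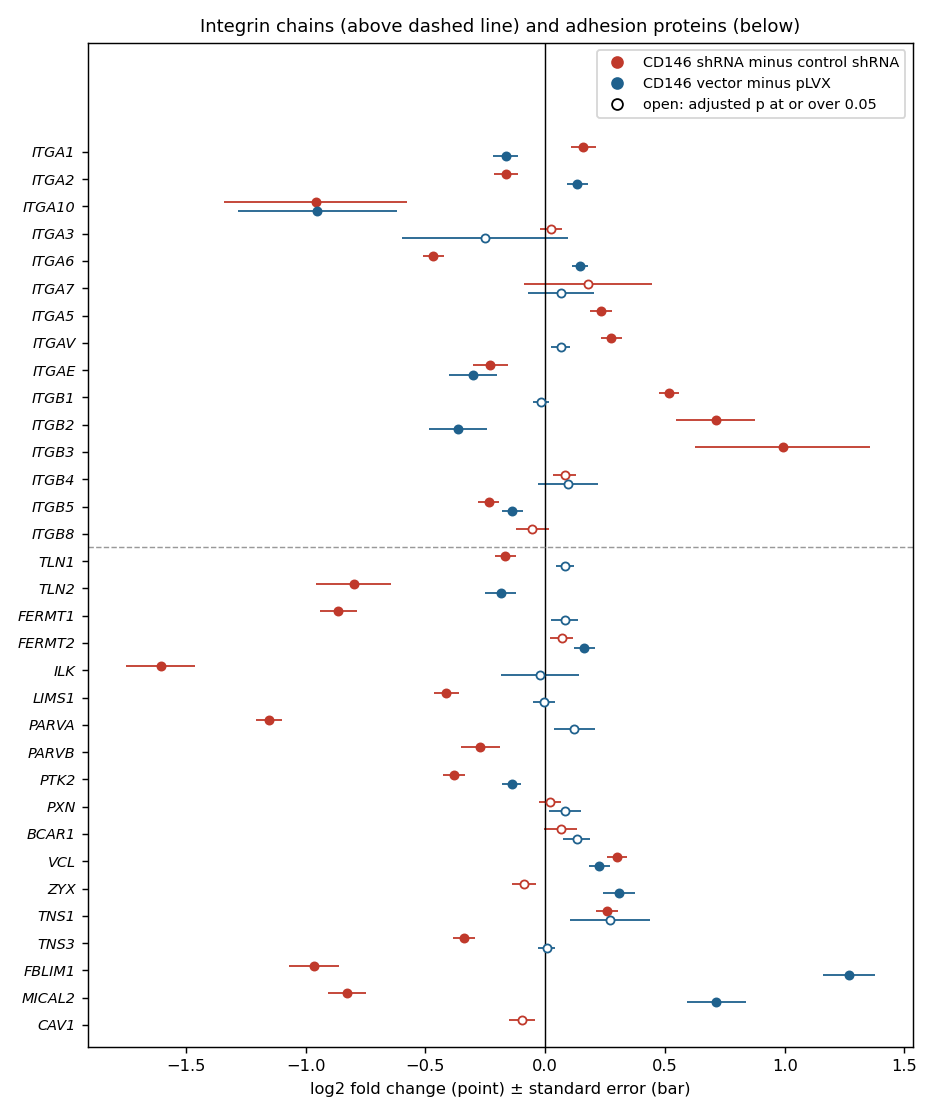
Log2 fold change (point) and standard error (bar) of every member tested, after the CD146 shRNA (red) and with the CD146 vector (blue); open points had an adjusted p of 0.05 or more. Integrin chains are above the dashed line and adhesion proteins below it. ILK and PARVA lie far to the left after the CD146 shRNA alone, and FBLIM1 and MICAL2 lie on opposite sides of 0 in the comparisons.

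ITGB1 (chr10:32900319-33005792, minus strand; GENCODE version 29, GRCh38) had 925, 938 and 958 CPM with the CD146 shRNA, and 610, 668 and 694 CPM with the control shRNA. Every CD146 shRNA library lay above every control library, and the log2 fold change was 0.52 (SE 0.04, edgeR adjusted p = 3.7e-13). ITGB2 had 5.75, 4.81 and 6.22 CPM with the CD146 shRNA, and 3.37, 3.10 and 3.69 CPM with the control shRNA. Its groups did not overlap either (0.71, SE 0.16, adjusted p = 3e-04), but limma on the deposited FPKM gave adjusted p of 0.06 to 0.1. ITGB3, the beta chain of platelets and an alpha V partner, was near the detection limit, at 1.05, 1.01 and 1.37 CPM with the CD146 shRNA, and 0.413, 0.361 and 0.891 CPM with the control shRNA. The call on ITGB3 (0.99, SE 0.37, adjusted p = 0.021) was lost with DESeq2 (adjusted p = 0.076), without CD146 shRNA replicate 3 (0.087) and without control shRNA replicate 1 or 2 (0.11 each). Of its exonic bases, 51.6% lie within another annotated gene. Groups did not overlap for 59.8% of all genes tested.

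The RGD-binding alpha chains, which recognise the Arg-Gly-Asp sequence of fibronectin and vitronectin, both rose: ITGA5 averaged 127 ± 6.30 CPM with the CD146 shRNA and 108 ± 2.34 CPM with the control shRNA (log2 fold change 0.23), and ITGAV averaged 225 ± 6.57 and 186 ± 11.5 CPM in that order (0.28; SD, n = 3 each). Both calls were kept in all 17 alternative settings. Of the laminin-binding chains, ITGA6 (chr2:172427354-172506282, plus strand) had 128, 136 and 134 CPM with the CD146 shRNA, and 176, 187 and 188 CPM with the control shRNA. The groups were well separated, and ITGA6 fell by 0.47 on the log2 scale (SE 0.04, edgeR adjusted p = 7.9e-12). ITGA3, at 155 ± 6.20 CPM with the CD146 shRNA and 152 ± 6.34 CPM with the control shRNA, overlapped between the groups (0.02, SE 0.05), as did ITGA7 and ITGB4.

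The collagen-binding chains divided. ITGA1 was called higher (log2 fold change 0.16) and ITGA2 lower (-0.16), both by less than the change in ITGA6. The call on ITGA1 was kept in 11 of 17 alternative settings, with an edgeR or limma adjusted p of up to 0.18 in the others. It was lost without control shRNA replicate 1 or 2 (0.054 and 0.053), without the filter on low counts and with limma. The call on ITGA2 was kept in 14 of 17. It was lost without control shRNA replicate 3 (0.06), with upper-quartile scaling (0.11) and with limma without a filter. ITGA10 had 0.443, 0.594 and 0.362 CPM with the CD146 shRNA, and 0.767, 0.866 and 1.13 CPM with the control shRNA. Its groups did not overlap (-0.96, SE 0.38, adjusted p = 0.031), yet the call was lost with DESeq2 (0.12), without the filter on low counts (0.06) and on leaving out CD146 shRNA replicate 1 or 3 (0.091 and 0.1) or control shRNA replicate 2 or 3 (0.055 and 0.16). ITGB5 fell by 0.24 on the log2 scale, to 204 ± 9.62 CPM with the CD146 shRNA against 241 ± 5.21 CPM with the control shRNA (SD, n = 3 each), and this call was kept in all 17 settings.

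Markers of other cell types moved with this comparison. The summed CPM of 5 endothelial markers was 23.5 to 24.3 with the CD146 shRNA and 2.88 to 3.48 with the control shRNA, almost all of it from CDH5, while KDR had 0 counts in all libraries and TEK at most 4. Fibroblast and stellate markers summed to 95.0 to 117 CPM with the CD146 shRNA and 59.6 to 69.0 CPM with the control shRNA, mostly COL1A1. The 5 leukocyte markers, one of which is ITGB2 itself, stayed between 5.81 and 9.42 CPM in both groups, with CD3E at 0. Cholangiocyte markers summed to 157 to 162 CPM with the CD146 shRNA and 189 to 203 CPM with the control shRNA, and 2 of the 3 tested were lower, KRT7 (-0.36) and SOX9 (-1.34). Their part in the changes of the integrin chains was not tested.

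The ILK-PINCH-parvin complex was lower throughout. ILK (chr11:6603708-6610874, plus strand) had 3.6, 2.97 and 2.97 CPM with the CD146 shRNA, and 9.09, 10.8 and 9.45 CPM with the control shRNA. All 3 treated libraries held less than the lowest control, and ILK fell by 1.61 on the log2 scale (SE 0.15, edgeR adjusted p = 2.7e-12). This value is uncertain, since 68.1% of the exonic bases of ILK overlap another annotated gene, TAF10 on the opposite strand among them, and the strand setting of the counting is not given in the sources used here. TAF10 itself had 11.2, 14.0 and 11.3 CPM with the CD146 shRNA, and 22.6, 20.9 and 23.8 CPM with the control shRNA (log2 fold change -0.89).

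PARVA (chr11:12377185-12535356, plus strand), which has no such overlap, had 34.9, 34.6 and 38 CPM with the CD146 shRNA, and 78.6, 80.2 and 79.9 CPM with the control shRNA. The groups were far apart relative to their spread, and PARVA fell by 1.15 on the log2 scale (SE 0.06, edgeR adjusted p = 1.3e-20). LIMS1 had 110, 90.3 and 102 CPM with the CD146 shRNA, and 133, 133 and 135 CPM with the control shRNA. It fell by 0.41 (SE 0.05, adjusted p = 7.6e-09), with the reservation that near-identical PINCH gene copies can share its reads. PARVB fell by 0.27, to 18.7 ± 1.19 CPM with the CD146 shRNA against 22.7 ± 1.94 CPM with the control shRNA (SD, n = 3 each). ILK, PARVA and LIMS1 kept their calls in all 17 alternative settings, and PARVB in 16.

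Talins and kindlins were lower in 3 of 4 cases. FERMT1 (chr20:6074845-6123544, minus strand) had 17.0, 20 and 19.1 CPM with the CD146 shRNA, and 34.6, 31.8 and 35.4 CPM with the control shRNA. Its libraries separated fully, and it fell by 0.86 on the log2 scale (SE 0.08, edgeR adjusted p = 1.1e-12). TLN2 had 6.97, 5.16 and 3.11 CPM with the CD146 shRNA, and 9.44, 8.59 and 9.15 CPM with the control shRNA. The treated libraries of TLN2 were more spread than the controls, without overlap (-0.80, SE 0.16, adjusted p = 3.5e-05). TLN1 fell by 0.17, to 152 ± 4.71 CPM with the CD146 shRNA against 171 ± 4.47 CPM with the control shRNA (SD, n = 3 each), a call that upper-quartile scaling removed (adjusted p = 0.057). FERMT2, at 88.8 ± 4.14 CPM with the CD146 shRNA and 84.5 ± 2.75 CPM with the control shRNA, overlapped between the groups and was not called.

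Of the signalling proteins, PTK2 fell by 0.38 on the log2 scale, to 106 ± 2.70 CPM with the CD146 shRNA against 137 ± 4.80 CPM with the control shRNA (SD, n = 3 each), and the scaffolds PXN (0.02, SE 0.05) and BCAR1 (0.07, SE 0.07) were not called. Among actin linkers and the other adhesion proteins, VCL (chr10:73995193-74121363, plus strand) rose. It averaged 1027 ± 27.6 CPM with the CD146 shRNA against 835 ± 34.4 CPM with the control shRNA (log2 fold change 0.30, SE 0.04, edgeR adjusted p = 8.5e-08). Of its exonic bases, 11.1% overlap AP3M1. TNS1 rose by 0.26 and TNS3 fell by 0.34, so the tensins went opposite ways. FBLIM1 (chr1:15756607-15786594, plus strand) had 9.24, 8.13 and 7.45 CPM with the CD146 shRNA, and 16.1, 17.4 and 15.5 CPM with the control shRNA. MICAL2 (chr11:12094008-12359144, plus strand) had 16.0, 15.6 and 14.2 CPM with the CD146 shRNA, and 28.4, 26.3 and 26.8 CPM with the control shRNA. Neither gene overlapped between the groups: FBLIM1 fell by 0.97 (SE 0.10, adjusted p = 2.4e-10) and MICAL2 by 0.83 (SE 0.08, adjusted p = 1.3e-11). ZYX (-0.09, SE 0.05) and CAV1 (-0.10, SE 0.05) were not called, but both were called lower with library totals as the only scaling (-0.12 and -0.13).

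**Figure D3:**
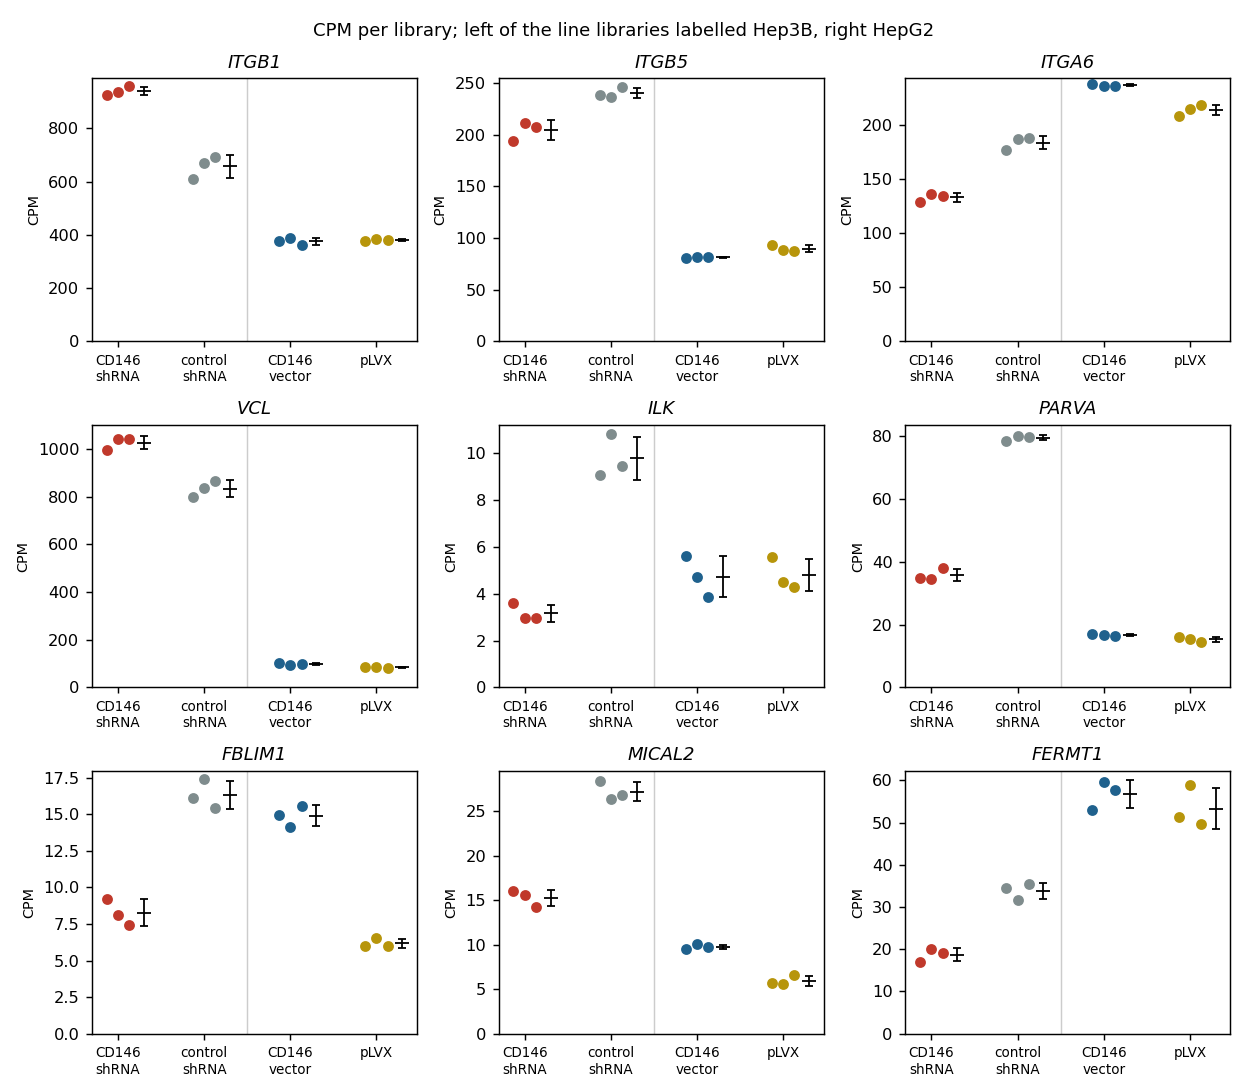
CPM of 9 members in each of the 12 libraries (points), with the mean and SD of 3 libraries beside them; libraries labelled Hep3B are left of the grey line and HepG2 right of it. CPM are scaled within each line. FBLIM1 and MICAL2 are lower with the CD146 shRNA and higher with the CD146 vector, whereas ILK, PARVA and ITGB1 were called between the shRNA groups and not between the HepG2 groups.

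ILK, MICAL2 and PARVA, all of which fell, lie on chromosome 11, MICAL2 and PARVA 18.0 kb apart. Their neighbours fell as well, more often than the 28.5% of all genes called lower. Within 2 Mb on each side of PARVA, 12 of 13 other genes with at least 5 CPM were called lower after the CD146 shRNA, with a median log2 fold change of -0.48. Around MICAL2, 13 of 14 were lower (median -0.35), a set that largely repeats the genes around PARVA, and around ILK 16 of 18 were lower (median -0.87). PARVA, MICAL2 and ILK themselves were 0.68, 0.48 and 0.74 below those medians. MICAL2 is counted among the neighbours of PARVA, and PARVA among those of MICAL2. TAF10, whose exons overlap ILK, is counted among the neighbours of ILK. With the CD146 vector, 3 of 11 neighbours of PARVA were called, MICAL2 among them, and each was higher (median 0.10), where 9.55% of all genes were called higher. The genes around FBLIM1 (25 neighbours, 4 higher and 6 lower, median 0.00), FERMT1 (12 neighbours, 5 higher and 3 lower, median 0.08) and ITGB1 (7 neighbours, 2 higher and 3 lower, median -0.09) showed no such shift. Chromosome 11 was not alone in this. ZYX, on chromosome 7, had 10 of 11 neighbours lower (median -0.38) although it was not called itself. Around ITGA1 and ITGA2, which lie close together on chromosome 5, 6 of 7 and 5 of 7 were lower (median -0.34 each).

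**Figure D4:**
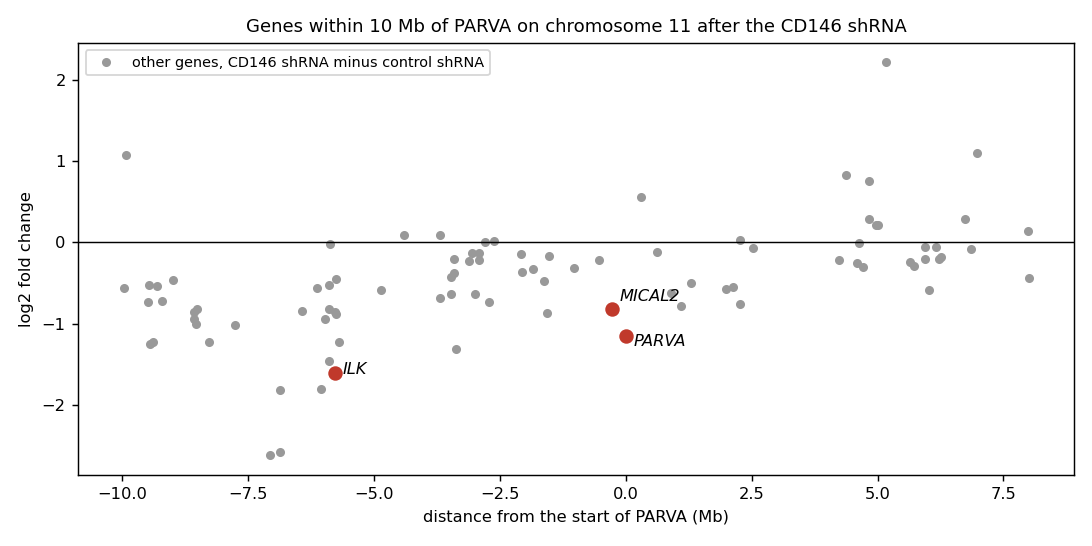
Log2 fold change after the CD146 shRNA (vertical axis) of genes with at least 5 CPM, by the distance of their start from that of PARVA (horizontal axis, Mb). Grey points are other genes and red points the 3 named members. Most genes from 10 Mb before PARVA to 4 Mb after it lie below 0, and beyond that they lie on both sides.

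With the CD146 vector in HepG2, the actin linkers FBLIM1, ZYX and VCL rose, as did MICAL2, the enzyme that oxidises actin. The alpha 6 and alpha 2 chains rose slightly, and ITGB1 and the 3 ILK-PINCH-parvin genes tested were not called. Of 15300 genes tested, 19.8% were called at an edgeR adjusted p under 0.05, 9.55% higher and 10.3% lower. Of the 28 members tested, 7 were higher, 7 lower and 14 not called, with a median log2 fold change of 0.07 against 0.00 for all genes. With library totals as the only scaling the split was 11 higher and 1 lower. Among integrin chains, 2 of 12 were higher and 5 lower, and among adhesion proteins 5 of 16 were higher and 2 lower. ITGA5, ITGB3, ITGB8, PARVB and CAV1, which were tested in the libraries labelled Hep3B, had at most 11 counts in any HepG2 library and were not tested there. Cholangiocyte markers moved with the vector too: KRT7, KRT19, EPCAM and SOX9 summed to 486 to 500 CPM with the CD146 vector and 346 to 364 CPM with pLVX. KRT7 had at most 2 counts in any of these libraries. Fibroblast and stellate markers summed to 39.3 to 48.3 CPM with the CD146 vector and 31.7 to 33.0 CPM with pLVX, mostly ACTA2. Hepatocyte markers were lower in sum (52400 to 53200 CPM with the CD146 vector against 57600 to 59600 CPM with pLVX), with 4 of 9 called lower, among them ALB (-0.54) and AFP (-0.53), and 1 higher. The 5 leukocyte markers, ITGB2 included, summed to 8.90 to 9.39 CPM with the CD146 vector and 11.3 to 12.3 CPM with pLVX, and endothelial markers to 5.93 to 6.69 CPM and 5.38 to 6.97 CPM in that order. The part of these markers in the calls was not tested.

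FBLIM1 had 14.9, 14.2 and 15.6 CPM with the CD146 vector, and 5.99, 6.54 and 5.99 CPM with pLVX. The vector libraries lay above all pLVX libraries, and FBLIM1 rose by 1.27 on the log2 scale (SE 0.11, edgeR adjusted p = 7.6e-14). MICAL2 had 9.53, 10.0 and 9.77 CPM with the CD146 vector, and 5.67, 5.63 and 6.57 CPM with pLVX. It too was separated between the groups and rose by 0.72 (SE 0.12, adjusted p = 9.9e-06). ZYX averaged 33.9 ± 2.34 CPM with the CD146 vector and 27.4 ± 1.38 CPM with pLVX (0.31), and VCL averaged 98.1 ± 3.31 and 83.9 ± 1.73 CPM in that order (0.23; SD, n = 3 each). ITGA6 averaged 236 ± 0.963 CPM with the CD146 vector and 214 ± 4.80 CPM with pLVX (0.15, adjusted p = 0.0011). The calls on FBLIM1, ITGA6, VCL and ZYX were kept in all 17 alternative settings and that on MICAL2 in 14 of 15. Groups did not overlap for 33.6% of all genes tested.

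ITGB1 had 377, 390 and 363 CPM with the CD146 vector, and 376, 385 and 382 CPM with pLVX. Its libraries overlapped, and the log2 fold change was -0.02 (SE 0.03). ILK (-0.02, SE 0.16), LIMS1 (-0.00, SE 0.05) and PARVA (0.12, SE 0.09) were not called. ITGA10 had 0.965, 0.442 and 0.867 CPM with the CD146 vector, and 1.30, 1.77 and 1.39 CPM with pLVX. The groups of ITGA10 did not overlap (-0.95, SE 0.33, edgeR adjusted p = 0.033).

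The other 8 calls with the CD146 vector were small and depended on the setting: FERMT2 (0.16) and ITGA2 (0.13) were higher, and ITGB2 (-0.36), ITGAE (-0.30), TLN2 (-0.18), ITGA1 (-0.17), PTK2 (-0.14) and ITGB5 (-0.14) lower. DESeq2 called 6 members higher and 1 lower, and limma on log2(FPKM + 0.1) called 0 lower, and 0 at an unadjusted p under 0.05. The FPKM are scaled by library totals. With that scaling alone, edgeR also lost the lower calls on ITGA1, ITGAE, ITGB2, ITGB5, PTK2 and TLN2. Leaving out a library left 6 higher and 6 lower calls without pLVX replicate 1, 6 and 3 without pLVX replicate 2, and 6 and 2 without pLVX replicate 3. Without CD146 vector replicate 1, 5 were higher and 4 lower, without replicate 2, 7 and 4, and without replicate 3, 6 and 2. ITGA10 itself was kept in 8 of 14 alternative settings, and its adjusted p reached 0.41. It was lost with DESeq2 and with limma without a filter. In edgeR it was lost without pLVX replicate 2 or 3 (adjusted p = 0.19 and 0.057) and without CD146 vector replicate 2 or 3 (0.17 and 0.063).

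Whether higher CD146 went with the same change in both lines was tested in a fit of all 12 libraries, as the change with the CD146 vector over pLVX minus the change of the control shRNA over the CD146 shRNA. Line, method of perturbation and size of the CD146 change cannot be told apart in this contrast. Of 18870 genes, 36.4% were called, 17.2% with a positive and 19.2% with a negative difference. Of the 33 members tested, 6 had a positive difference, 11 a negative one and 16 were not called. For 5 of those 16 (ITGA5, ITGB3, ITGB8, PARVB and CAV1) the HepG2 counts were too low for a test within that line, so their differences could not be assessed. FBLIM1 (0.31, SE 0.15, edgeR adjusted p = 0.12) and MICAL2 (-0.11, SE 0.14, adjusted p = 0.62) were not among the called, and neither was ITGA2 (-0.03, SE 0.07). These 3 genes were lower with the CD146 shRNA and higher with the CD146 vector, as was ITGA6, whose changes did differ in size (-0.32, SE 0.06, adjusted p = 7.1e-06). ITGA1 and ITGB2 were the opposite, higher with the CD146 shRNA and lower with the vector. With the vector, the calls on ITGA2, ITGA1 and ITGB2 held in only 10, 9 and 7 of 17 alternative settings. VCL was higher in both comparisons and differed between the lines (0.53, SE 0.06, adjusted p = 2.6e-10). ITGA10, ITGAE, ITGB5, PTK2 and TLN2 were lower in both, and all 5 differed. For VCL and these 5 genes the contrast adds changes of the same sign, so their differences follow largely from those calls.

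The largest called differences between the lines beside ITGA10 (-1.91, SE 0.52, edgeR adjusted p = 0.0024) were those of ILK (-1.62, SE 0.22, adjusted p = 2e-08), PARVA (-1.03, SE 0.10, adjusted p = 8.6e-13) and TLN2 (-0.98, SE 0.16, adjusted p = 1.3e-06). The difference of ITGA10 adds similar changes in each line, -0.96 after the CD146 shRNA and -0.95 with the vector. ITGB1 differed by 0.50 (SE 0.06, adjusted p = 1.4e-10), being higher with the CD146 shRNA and not called with the vector. LIMS1 differed by -0.41 (SE 0.07, adjusted p = 7.8e-06). Of the 5 members called in neither line (ITGA3, ITGA7, ITGB4, PXN and BCAR1), the differences between the lines ran from -0.22 to 0.24 and none was called, apart from BCAR1 in 7 of 22 alternative settings.

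The promoters of FBLIM1 and MICAL2, which were lower with the CD146 shRNA and higher with the CD146 vector, and that of VCL, which was higher in both, are shown as the 250 bases before an annotated start (RefSeq, GRCh38.p14, plus strand). They were searched on both strands for TEAD sites (CATTCC or GGAATG), AP-1 sites (TGANTCA) and the CArG box bound by serum response factor, which do not overlap one another here. The FBLIM1 window is chr1:15758545-15758794, with its CArG box in capitals, the MICAL2 window chr11:12138140-12138389, and the VCL window chr10:73997866-73998115, with its TEAD letters in capitals.
FBLIM1: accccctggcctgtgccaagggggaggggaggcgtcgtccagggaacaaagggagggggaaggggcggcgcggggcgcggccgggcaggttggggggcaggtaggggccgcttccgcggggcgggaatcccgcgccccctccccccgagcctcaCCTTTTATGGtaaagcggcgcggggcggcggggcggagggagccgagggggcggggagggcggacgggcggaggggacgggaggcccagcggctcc
MICAL2: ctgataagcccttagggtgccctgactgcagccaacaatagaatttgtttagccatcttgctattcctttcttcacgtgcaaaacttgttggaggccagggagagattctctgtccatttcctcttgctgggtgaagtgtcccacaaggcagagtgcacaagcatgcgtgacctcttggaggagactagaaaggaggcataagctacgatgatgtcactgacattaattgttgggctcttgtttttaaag
VCL: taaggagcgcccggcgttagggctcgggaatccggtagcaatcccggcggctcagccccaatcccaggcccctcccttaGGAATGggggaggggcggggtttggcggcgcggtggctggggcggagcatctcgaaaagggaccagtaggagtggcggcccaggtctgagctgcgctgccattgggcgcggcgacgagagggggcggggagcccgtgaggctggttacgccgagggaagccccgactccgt

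The CArG box of FBLIM1 is in 1 of its 3 annotated windows, and none of the 3 motifs is in this MICAL2 window. CArG letters occur in 1.16% of 35116 promoter windows, TEAD letters in 11.9% and AP-1 letters in 6.57%. Of the 38 members, 29 had an entry, with 54 windows among them. A TEAD match was found in 7 of these (in ITGA5, ITGA10, ITGB1, PXN, TNS1 and VCL), an AP-1 match in 2 (BCAR1 and LIMS1) and a CArG match in 2 (FBLIM1 and ITGB6). The windows of FBLIM1 and VCL are rich in G and C (78.4% and 70.4%), that of MICAL2 is not (46.8%), and a match is a description of letters, not of a bound site.

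Among 119 other adhesion genes, listed by role, the matrix ligands of integrins were mostly higher after the CD146 shRNA: 20 of 24 tested were higher and 3 lower (95.8% called, against 55.3% of all genes), with a median log2 fold change of 0.60 against 0.00 for all genes. CCN2, a matricellular protein, averaged 126 ± 10.0 CPM with the CD146 shRNA and 30.9 ± 3.45 CPM with the control shRNA (2.03). LAMA1, a laminin chain, averaged 62.0 ± 4.48 and 22.7 ± 1.08 CPM in that order (1.45), and the matricellular gene CCN1 averaged 123 ± 10.6 and 55.2 ± 6.43 CPM (1.15). COL4A1, a chain of basement membrane collagen, averaged 403 ± 5.37 CPM with the CD146 shRNA and 239 ± 7.36 CPM with the control shRNA (0.75; SD, n = 3 each). In HepG2 with the CD146 vector, 8 of 20 matrix ligands were higher and 3 lower (55% called), and CCN2 was among the lower (-0.39), with FN1, fibronectin (-0.29), while THBS1, thrombospondin-1 (0.79), and LAMA3, another laminin chain (2.01), were higher.

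Of 24 other adaptors tested after the CD146 shRNA, 6 were higher and 10 lower (66.7% called, against 55.3% of all genes). CSRP1, a zyxin partner, rose by 0.66 and PPFIA1, a liprin, by 0.62, while CAVIN1, which shapes caveolae, fell by 0.51 and PDLIM5, a LIM protein of actin bundles, by 0.44 on the log2 scale. Of 20 kinases and GTPase regulators, 4 were higher and 10 lower (70% called): NEDD9, a relative of p130Cas, rose by 1.33 and the Src family kinase FYN by 0.66, and the adaptor CRKL fell by 0.43 and CSK, which restrains Src kinases, by 0.50. In HepG2, 6 of 21 adaptors were higher and 1 lower with the CD146 vector (33.3% called, against 19.8% of all genes), CAVIN1 (0.43) and TES (0.42) among the higher. Of 20 kinases and regulators, of which 25% were called, 4 were higher, with NEDD9 (0.52) and the kinase PAK1 (1.02) among them, and 1 lower. CAVIN1 was therefore lower with the CD146 shRNA and higher with the vector, and NEDD9 was higher in both.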

How the data were processed

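Raw counts per Ensembl gene ID and FPKM rounded to 2 decimals were deposited by the authors for 12 libraries. Per the submitters' processing notes, cutadapt 1.9.1, HISAT2 2.2.1 and HTSeq 0.6.1 were used; the build, annotation and strand setting are not given in the sources used here. Gene names and positions came from GENCODE version 29 (GRCh38) by Ensembl ID. Counts were tested in R 4.3.3 with edgeR 4.0.16 (quasi-likelihood, TMM, filterByExpr, 2-sided, Benjamini-Hochberg over all genes, threshold 0.05), each line alone, with limma 3.58.1 and DESeq2 1.42.0 as alternatives. CPM were scaled within each comparison, so the values of a control shRNA or pLVX library differ between comparisons. These differences can be as large as the small called changes, so CPM from different comparisons are not to be set against each other. On library totals, a count of 3, the floor, was worth 0.165 to 0.235 CPM. Floors and intervals cover counting error only. Replicates differed beyond sampling noise (chi-square per gene 1.74 to 3.93), but no label ties them to separate cultures, so each p-value may rest on technical spread alone. An exact permutation test of 3 against 3 cannot go below p = 0.1, so none is given. The script was tested on simulated data. Members and lists were chosen with earlier results of these data known. Values per library are given for members called with an absolute log2 fold change of at least 0.4 and for ITGB1, and from each other list up to 4 called genes with the smallest adjusted p. One further result is not reported here. An alternative gene length was added after seeing the data.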

Additional observations from a re-analysis of the deposited data

Results flagged for a closer look

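For 17 members the effect of higher CD146 differed between the lines, tested over all 12 libraries (edgeR, adjusted p under 0.05). Of all genes, 36.4% were called in it, and line, method of perturbation and size of the CD146 change cannot be told apart. The differences below are log2 values, the CD146 vector over pLVX minus the control shRNA over the CD146 shRNA. A gene that moved the same way in both comparisons, such as ITGA10 or VCL, gets its difference from adding those changes. The most negative were ITGA10 (-1.91), ILK (-1.62), PARVA (-1.03), TLN2 (-0.98) and FERMT1 (-0.78). ITGAE (-0.53), PTK2 (-0.52), LIMS1 (-0.41), ITGB5 (-0.37), TNS3 (-0.33) and ITGA6 (-0.32) were also negative. VCL (0.53), TNS1 (0.53), ITGB1 (0.50), ITGAV (0.34), FERMT2 (0.24) and ZYX (0.23) were positive. ZYX lost its call without CD146 vector replicate 2 or 3, pLVX replicate 3, or CD146 shRNA replicate 2 or 3, and without a filter on low values, with adjusted p of 0.051 to 0.15.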

How the results depend on the processing

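Of the member results after the CD146 shRNA, 513 comparisons with an alternative kept their side of the threshold, 28 lost the call and 9 gained one. With the CD146 vector the numbers were 391, 66 and 9. No member called in the main or the alternative fit changed sign in these comparisons. Some that were called in neither did, such as ITGB1 with the vector (-0.04 to 0.05 over the alternatives). Limma on log2(FPKM + 0.1), with or without a filter, and on log2(FPKM + 1) called 5 members higher after the CD146 shRNA (8 by edgeR) and 0 lower with the CD146 vector (7 by edgeR). With the vector, DESeq2 called 1 lower, library totals as the only scaling gave 11 higher and 1 lower, and leaving out a library gave 2 to 6 lower. Between the control groups, limma with either pseudocount called 7 lower (12 by edgeR). In that comparison the signs of TLN1, ITGAV, PTK2 and ITGA1 reversed to 0.16, 0.27, 0.16 and 0.051 with library totals, to 0.16, 0.27, 0.15 and 0.046 with limma on log2(FPKM + 0.1) with or without a filter, and to 0.15, 0.25, 0.14 and 0.037 on log2(FPKM + 1). The median of all genes was 0.38 with library totals, 0.35 with the pseudocount of 0.1 (0.21 without the filter) and 0.26 with the pseudocount of 1, so ITGAV without the filter lay above it and the others below. Same-numbered replicates were weakly correlated at most (r of 0.032 to 0.109 after the CD146 shRNA, -0.044 to 0.018 with the vector). The value of 0.109, for replicate 1, passed the 0.1 set for pairing, and differently numbered pairs after the CD146 shRNA ran from -0.109 to 0.068. With a replicate block, 8 members were higher and 16 lower after the CD146 shRNA, and 7 and 7 with the vector, as without it. Depth limited ITGB3, ITGA7, ITGA10 and the untested chains.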

Other observations

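Membrane partners of integrins moved as well after the CD146 shRNA. Of 9 tetraspanins and other integrin-associated proteins tested, 5 were higher and 3 lower (88.9% called, against 55.3% of all genes). BSG (basigin, a surface partner of beta 1 integrins) averaged 1190 ± 68.5 CPM with the CD146 shRNA and 664 ± 13.9 CPM with the control shRNA (log2 fold change 0.84; SD, n = 3 each). The tetraspanin CD9 rose by 0.44, whereas the tetraspanin CD82 fell by 1.56, to 3.77 ± 0.457 CPM with the CD146 shRNA against 11.1 ± 0.111 CPM with the control shRNA, and SLC3A2, the CD98 heavy chain, fell by 0.40. With the CD146 vector, BSG (-0.21) and CD63 (-0.13) were lower and CD47 (0.72) higher among 7 tested. Among integrin chains outside the 38, ITGAD (1.71) and ITGA2B (1.54) rose after the CD146 shRNA, at under 6 CPM in every library labelled Hep3B. The counter-receptors ICAM1 (0.45) and CDH1 (1.92) rose too. With the CD146 vector, ITGA2B (0.42, edgeR adjusted p = 0.46), ICAM1 (0.02, adjusted p = 0.8) and CDH1 (-0.09, adjusted p = 0.17) were not called.

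Of 17 genes for actin bundling and contractility, 6 were higher and 4 lower after the CD146 shRNA, which at 58.8% called is near the 55.3% of all genes. With the vector 8 were higher and 1 lower (52.9% called, against 19.8% of all genes). The filamin gene FLNA (0.32) and the non-muscle myosin gene MYH9 (0.40) rose after the CD146 shRNA, and the tropomyosin TPM2 fell by 0.43. In HepG2, EVL, which promotes actin filament growth, averaged 18.4 ± 1.27 CPM with the CD146 vector, against 8.14 ± 0.486 CPM with pLVX (1.18; SD, n = 3 each), TPM1 (0.32) and TPM4 (0.19) rose, and MYH10 fell by 0.18. DST, a linker of hemidesmosomes to keratin, fell by 0.36 after the CD146 shRNA and rose by 0.48 with the CD146 vector.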
